A study of Rattus norvegicus with 2 samples.

Results

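The sympathetic neurons of the stellate ganglion of the normotensive Wistar rat are described here by the absolute level of every gene and its place in the rank order of all genes. The members are all lines of the Wistar neuron cluster, 25399 of the 25399 genes listed for the series, and no gene was chosen by its value. The study dissociated stellate ganglia with collagenase IV, trypsin and mechanical disruption and sequenced single cells with 10x Genomics droplet chemistry of the 3' v3 kind. It made 1 library from Wistar rats, labelled normotensive, and 1 library from spontaneously hypertensive rats (SHR), labelled prehypertensive. Animals of both strains were males of 5 to 6 weeks, and neither group carried a transgene or received a treatment according to the labels and methods. The methods used here do not give the number of rats behind each library, so cells of several animals may be mixed within 1 library. Wistar rats are an outbred strain and are not genetically uniform. With 1 library per strain there was no spread between replicates and no test. The SHR library served as a check of the rank order, and some SHR levels, ratios and shares are given beside those of Wistar as a description.

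Postganglionic sympathetic neurons of the stellate ganglion send their axons to the heart and to other targets and release noradrenaline there. The paper states that the ganglion holds neurons of cardiac and of noncardiac targets, and the means used here do not tell these apart. Tyrosine hydroxylase (Th) and aromatic amino acid decarboxylase (Ddc) make dopamine in the cytoplasm, the vesicular transporter Slc18a2 loads it into vesicles, and dopamine beta-hydroxylase (Dbh) turns it into noradrenaline inside them. After release the noradrenaline transporter (Slc6a2) carries it back, and monoamine oxidase A (Maoa) breaks down what is not stored again. Neuropeptide Y (Npy) is released with noradrenaline by many of these cells. The input from the spinal cord reaches them through nicotinic acetylcholine receptors.

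Each level below is the mean count of a gene per 10000 counts of a cell, averaged over the neurons of the cluster so that each neuron weighs the same whatever its depth. In this chemistry a molecule is counted by a tag at its 3' end, so levels of different genes were compared without dividing by gene length. A gene whose 3' end was annotated wrongly in the reference would be counted too low. The lowest levels were shared by several genes at once, as happens when each of them was counted in 1 neuron alone with a single count. The level is then 10000 divided by the number of neurons and by the counts of that neuron. The largest number of neurons that made nearly all such depths whole was taken, since its divisors make them whole too. This gave 315 neurons in Wistar and 110 in SHR, 425 in all. Of 60 Wistar levels precise enough to tell, 59 gave a whole depth within 0.1 counts. On simulated clusters over 25399 genes, the same procedure found 90, 200 and 315 neurons where 90, 200 and 315 had been simulated. The simulated neurons all shared the same mean levels, and their low and high ranges of depth were set in advance. The simulation thus tests the number of neurons found and cannot tell whether such ranges exist in the data.

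Depths were found for 199 of the 315 Wistar neurons and ran from 4093 to 227128 counts, with a median of 97221. They fell into a low and a high range, with 28 neurons between 4093 and 18637 counts, 171 neurons from 39352 counts upwards with a median of 106833, and none in between. The remaining 116 neurons have no depth here. In SHR 6 of 107 neurons found lay at 7931 counts or below and 101 at 39326 or above. A single count in the shallowest Wistar neuron found adds 0.00776 per 10000 to a mean, and a single count in the deepest adds 0.00014. The counting error given with each level is the upper bound that follows from the shallowest neuron, which was 27.8% of a level of 0.1 per 10000, 8.81% of a level of 1 and 2.78% of a level of 10. It covers counting error alone, leaves out the spread between neurons and between animals, and would be larger if a neuron not found here were shallower still. Neighbours in an order of levels were called apart when they differed by at least 1.96 times their combined counting error.

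**Figure D1:**
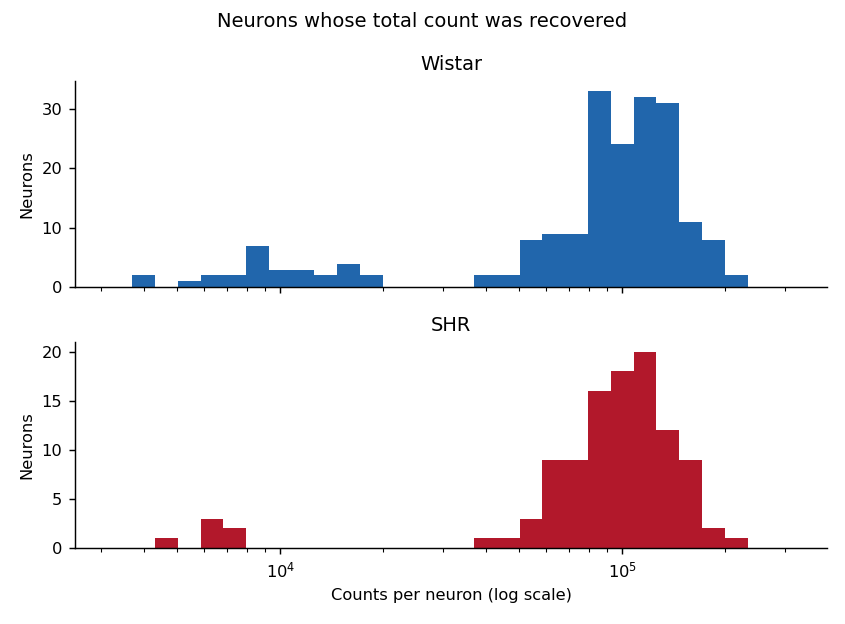
Counts per neuron (log scale) of the neurons whose depth was found in Wistar (199 of 315) and SHR (107 of 110), with the number of neurons on the vertical axis. Both libraries held a low range, at most 18637 counts in Wistar and 7931 in SHR, and a high range that began at 39352 and 39326 counts.

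The level fell steeply along the rank order of the Wistar neurons. A level above 0 was listed for 16004 genes, and 9395 genes were listed at 0. At least 0.1 per 10000 was reached by 7936 genes, at least 1 by 1734 and at least 10 by 91. The counts of list members given below are to be read beside these counts over all 25399 genes. The 7 genes above 100 per 10000 held 17.2% of the total, the 84 genes from 10 to 100 held 17.7%, the 1643 genes from 1 to 10 held 39.8% and the 6202 genes from 0.1 to 1 held 23.5%. The middle of the range thus carried more of the total than the top. The 10 highest genes held 19.9% and the 100 highest 35.7%, and 358 genes were needed to reach 50% of the total. The median level was 0.00599 per 10000 over all genes and 0.0973 over the genes above 0. A listing at 0 is not absence, since the neuronal enolase gene Eno2 and the heat shock protein gene Hsp90aa1, which are abundant in neurons, were among the genes at 0. With a 0 taken to allow up to 3 of 315 neurons, the share of neurons with a counted read may be up to 0.952%. This limit treats the neurons of 1 library as independent draws and does not extend to other animals. It says nothing of reads that were not assigned to the gene.

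**Figure D2:**
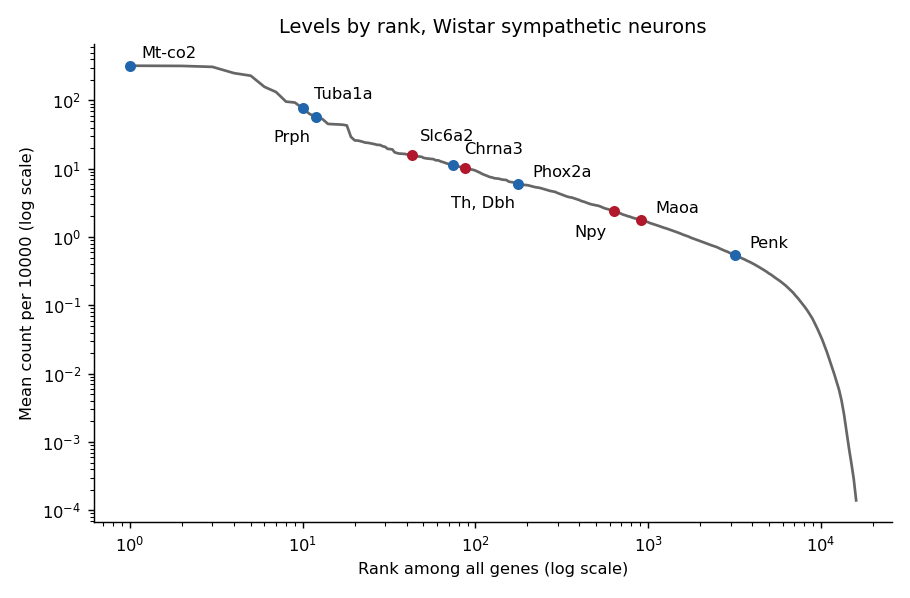
Level of every Wistar gene above 0 (mean count per 10000, log scale) against its rank (log scale), with named genes as points, the 5 markers in red and others in blue. Slc6a2, Th and Dbh stand within the 100 highest genes, Npy and Maoa at ranks 635 and 908, and the curve spans from 322 per 10000 at Mt-co2 down to single counts.

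The 5 markers of the noradrenergic neuron were all within the 1000 highest of 25399 genes. Slc6a2 stood at 15.9 ± 0.351 per 10000 (rank 43), Th at 10.2 ± 0.281 (rank 87), Dbh at 10.2 ± 0.281 (rank 88), Npy at 2.38 ± 0.136 (rank 635) and Maoa at 1.78 ± 0.117 (rank 908), where each error is the counting bound in the 1 library. The transporter stood 12.6 counting errors above Th. Th and Dbh, the first and the last enzyme of the route to noradrenaline, lay 0.0285 counting errors from each other, a ratio of 1.00 ± 0.0391, and their order cannot be told. In SHR the order of the 5 markers by rank was the same, at ranks 62, 103, 213, 1100 and 1454, but Th there stood 1.59 times above Dbh. The study named the cluster from markers of this kind, so their presence follows from the choice of the cluster and is not an independent check of its label.

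The promoters of the marker genes are shown because their products define the cell. Those of Scg2, Tubb2a and Prph are examples of genes of the secretory granule and the neuronal cytoskeleton within the 100 highest. Other such genes, among them Tuba1a, Stmn2 and Snap25, are not shown. The printed stretches are thus a selection, and how often a motif occurs among them does not describe the 100 highest genes. Each is the stretch of 150 bases directly before the RefSeq start, on the coding strand, 5′ to 3′. The positions are on GRCr8, which is not the Rnor_6.0 build of the deposited values. Capitals mark the cAMP response element TGACGTCA, the TATA box TATAAA and the GC box GGGCGG or its reverse CCGCCC, found on either strand and without overlap between motifs in these stretches.
Th (chr1:207508219-207508368, minus strand): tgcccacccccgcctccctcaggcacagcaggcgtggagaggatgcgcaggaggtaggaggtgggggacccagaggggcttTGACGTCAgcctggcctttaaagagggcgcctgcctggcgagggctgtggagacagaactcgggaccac
Dbh (chr3:30886178-30886327, plus strand): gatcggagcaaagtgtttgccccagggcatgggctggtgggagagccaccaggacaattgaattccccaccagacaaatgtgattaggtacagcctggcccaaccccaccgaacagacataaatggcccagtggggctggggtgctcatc
Npy (chr4:80211961-80212110, plus strand): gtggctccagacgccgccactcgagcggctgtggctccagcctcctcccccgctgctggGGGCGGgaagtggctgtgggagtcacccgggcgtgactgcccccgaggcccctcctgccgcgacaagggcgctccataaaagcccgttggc
Maoa (chrX:8681373-8681522, minus strand): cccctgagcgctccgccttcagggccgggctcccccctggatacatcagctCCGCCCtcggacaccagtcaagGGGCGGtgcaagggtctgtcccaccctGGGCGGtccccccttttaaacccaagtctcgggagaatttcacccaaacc
Scg2 (chr9:88256867-88257016, minus strand): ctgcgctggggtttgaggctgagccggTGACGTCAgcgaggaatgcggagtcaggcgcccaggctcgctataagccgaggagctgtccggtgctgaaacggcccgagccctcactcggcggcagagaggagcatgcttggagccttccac
Tubb2a (chr17:31002036-31002185, plus strand): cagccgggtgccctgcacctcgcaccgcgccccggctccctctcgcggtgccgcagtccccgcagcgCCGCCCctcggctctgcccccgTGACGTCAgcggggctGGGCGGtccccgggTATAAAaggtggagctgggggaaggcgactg
Prph (chr7:132097139-132097288, plus strand): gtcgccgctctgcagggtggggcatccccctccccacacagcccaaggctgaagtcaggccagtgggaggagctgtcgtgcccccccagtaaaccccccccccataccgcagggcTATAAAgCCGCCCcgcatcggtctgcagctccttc
The same search covered CCAAT and TAATTA, of which these stretches held none. Th held TGACGTCA at -69 bases from its start, Tubb2a at -61 and Scg2 at -123. Windows of 250 bases before to 50 after a start were at hand for 65 of the 100 highest Wistar genes, and 8 of these 65 genes held TGACGTCA. The other 5 were Hsp90ab1 at -180, Ywhah at -163, Cox8a at -76, Ldha at -51 and Klc1, whose 3 annotated starts held it at -75, -89 and -98. Of all 33469 windows of the table, 1.83% held TGACGTCA, 14.2% TATAAA, 33.1% GGGCGG, 37.5% CCAAT and 5.36% TAATTA, in either direction. Of the 15262 windows of genes listed in the Wistar values, 2.52% held TGACGTCA, 9.79% TATAAA, 51.8% GGGCGG, 36.9% CCAAT and 3.19% TAATTA. These shares are per window and the count of 8 is per gene, so they were not compared. A share per gene over all 13588 genes with a window was not counted, so whether 8 of 65 is many or few cannot be told. A match is a stretch of letters and not a measured binding site, and Slc6a2 has no window in the table.

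The genes that make, store and recover noradrenaline covered a wide range of levels. All 17 on this list were above 0 and 9 stood within the 1000 highest. The list median was 1.78 per 10000, against 0.00599 over all genes and 0.0973 over the genes above 0. The list holds the markers Slc6a2, Th, Dbh and Maoa, so its median is not independent of the choice of the cluster. Behind Slc6a2 came Cyb561 at 14.9 ± 0.340 per 10000 (rank 49), the cytochrome that passes electrons into the vesicle for Dbh. The decarboxylase Ddc stood at 7.05 ± 0.234 and the vesicular transporter Slc18a2 at 5.36 ± 0.204. These levels put the steps that act on the amine itself among the 224 highest genes. The enzymes that supply and recycle tetrahydrobiopterin, the cofactor of Th, were lower. Pcbd1 and Qdpr, which regenerate it, stood at 2.31 and 2.29 per 10000, while Gch1, Spr and Pts, which make it, stood at 0.220, 0.217 and 0.126. Th exceeded Gch1, the first enzyme of cofactor synthesis, 46.3 ± 8.78 times in Wistar and 15.1 times in SHR. Among the enzymes of breakdown, Maoa exceeded Maob 5.44 ± 0.913 times in Wistar and 3.05 times in SHR. Slc18a2 exceeded the chromaffin cell form Slc18a1 31.1 ± 6.71 times. Pnmt, which turns noradrenaline into adrenaline, was listed at 0.00175 per 10000, no more than the level of a single count in 1 shallow neuron.

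The highest genes of the Wistar neuron belonged to mitochondrial respiration and to the cytoskeleton. The 13 genes of the mitochondrial genome held 16.9% of the total and took 8 of the first 10 ranks. Mt-co2 stood at 322 per 10000 and Mt-co3 at 319.6, an order that cannot be told at 1.06 counting errors, followed by Mt-atp6 at 309.7, Mt-cyb at 229.8 and Mt-co1 at 158, which encode subunits of cytochrome oxidase, ATP synthase and cytochrome b. The remaining place before rank 10 went to AC134224.3, a clone name with no gene symbol, at 251 per 10000. By contrast, the 96 ribosomal protein names held 2.46%, with 85 above 0, a median of 2.31 per 10000 and a single one, Rpl41 at 11.4, within the 100 highest. Ribosomal protein genes have many near-identical copies, so reads may have been split or dropped among them. The share of mitochondrial counts in SHR was 18.0% and that of ribosomal protein counts 3.58%.

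**Figure D3:**
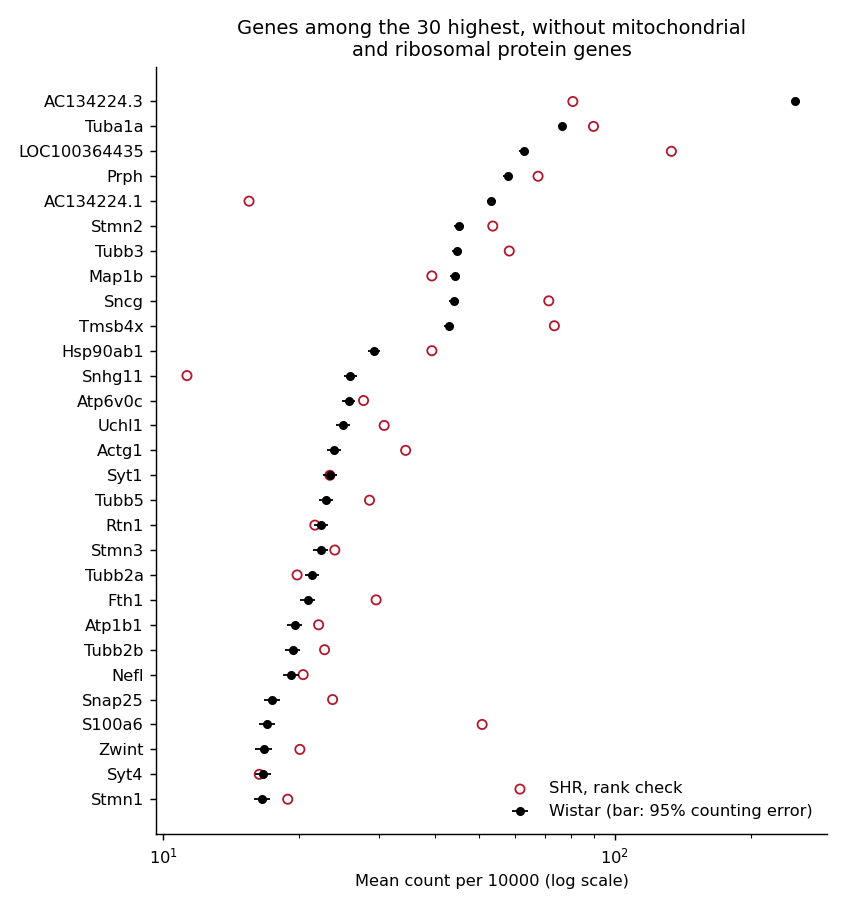
Levels (mean count per 10000, log scale) of genes among the 30 highest in Wistar that are neither mitochondrial nor ribosomal protein genes, with 1.96 counting errors as bars and the SHR level as an open point. AC134224.3 leads at 251 per 10000, and Tuba1a, Prph, Stmn2, Tubb3 and Map1b stand between 76.5 and 44.3.

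Tubulins, intermediate filaments and microtubule proteins led the nuclear genes with a known name. Tuba1a, an alpha tubulin, stood at 76.5 ± 0.770 per 10000 (rank 10) and Prph, the intermediate filament of peripheral neurons, at 58.0 ± 0.670 (rank 12). Stmn2 at 45.3 ± 0.593, Tubb3 at 44.8 ± 0.590 and Map1b at 44.3 ± 0.586 followed within a narrow band, and the differences between neighbours there were within the counting error. Of the 35 pan-neuronal genes in the file, 33 were above 0, 18 stood within the 100 highest, and together they held 5.52% of the total. Prph exceeded the neurofilament Nefl 3.02 ± 0.0701 times, and Nefl at 19.2 exceeded Nefh at 0.800 per 10000 24.0 ± 2.41 times. The filament set was thus led by peripherin and the light chain. The axonal growth genes Basp1 and Gap43 stood at 15.9 and 13.3, and the microtubule-associated genes Mapt and Map2 at 10.6 and 10.3. The RNA-binding gene Elavl2 stood at 16.1, above Elavl4 at 3.41 and Elavl3 at 0.845. Rbfox3, which encodes the nuclear antigen NeuN, was listed at 0, while Rbfox1 stood at 5.29 per 10000.

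Axonal transport and energy supply were carried by a broad set of genes. All 19 kinesin, dynein and dynactin genes reached 0.1 per 10000 and 15 were within the 1000 highest, from Klc1 at 12.5 and Dynll1 at 9.70 down to Kif3c at 0.219. The kinesin motors Kif1b at 8.25 and Kif5a at 7.19 stood above Kif5c at 4.38 and Kif5b at 2.49. Of the 17 glycolytic genes 16 were above 0. Aldoa at 12.9, Pgk1 at 9.72 and Ldha at 9.66 per 10000 were the highest of them, and Ldha exceeded Ldhb 5.29 ± 0.375 times. Pkm, the pyruvate kinase that nearly all cells need, was listed at only 0.209 and Tpi1 at 0.223 per 10000, so that a low level of a single gene in these values need not be a low level in the cell. Of 20 genes of ion pumps and transport 19 were above 0. Atp1b1, the beta-1 subunit of the sodium pump, stood at 19.6 ± 0.389 per 10000 (rank 31) and the beta-3 subunit Atp1b3 at 2.86. Among chloride transporters Slc12a2, which brings chloride in, stood at 0.609 per 10000 and Slc12a5, which takes it out of central neurons, at 0.000257. The calcium pumps Atp2b4 at 4.84 and Atp2a2 at 3.24 led theirs.

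Genes of calcium binding and protein folding stood high as well. S100a6 at 17.0 and S100a10 at 10.4 per 10000 were among the highest of the 21 calcium-binding genes, of which 20 were above 0 and 10 within the 1000 highest. The calbindin gene Calb1 stood at 0.132 and Calb2 at 0.000725, and Pvalb was listed at 0, so that the interneuron calcium buffers were low or at 0. Of 13 chaperone, ubiquitin and proteasome genes 12 were above 0 and 11 within the 1000 highest. Hsp90ab1 led them at 29.3, followed by Hspa8 at 11.5 and Hspb1 at 10.4.

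The secretory apparatus held 2 layers, small vesicles and peptide granules. Of the 41 genes of vesicle release in the file all were above 0, and 23 reached 1 per 10000. The synuclein Sncg stood at 44.1 ± 0.585 (rank 17), the highest of these genes. The calcium sensor Syt1 at 23.4 exceeded Syt4 at 16.6 1.41 ± 0.0397 times, and the membrane fusion gene Snap25 stood at 17.4. Vamp2, Rab3a and Syngr3 lay close together between 5.06 and 5.21 per 10000. The active zone genes were lower, with Pclo at 3.11, Bsn at 0.810, Rims2 at 0.689, Unc13b at 0.293 and Unc13a at 0.094. Syp, the synaptophysin gene, was listed at 0.224 per 10000. Among granule genes Scg2 stood at 9.49 ± 0.271 (rank 99), Resp18 at 7.33, Scg5 at 7.20, Chgb at 3.78 and Chga at 2.44. Of the processing enzymes, Cpe at 3.48 and Pam at 3.09, which finish peptides, stood above the convertases Pcsk2 at 0.799 and Pcsk1 at 0.173 per 10000. The granule list also holds the membrane fusion gene Snap25, its highest member. All 13 genes of this list in the file were above 0, with a median of 3.09 per 10000.

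Npy led the neuropeptide genes. The paper described separate sympathetic neuron populations that differed mainly in whether neuropeptide Y was expressed. The Npy level here is a mean over the deposited cluster and does not tell such populations apart. Of 26 neuropeptide genes 21 were above 0 and 8 reached 0.1 per 10000, and Npy made up 52.1% of their summed level of 4.56. Penk, the enkephalin precursor, stood at 0.546 ± 0.0651 and Npy exceeded it 4.35 ± 0.575 times. Adcyap1, which encodes the peptide PACAP, stood at 0.445 ± 0.0588, Cartpt at 0.281, Pnoc at 0.217, Gal at 0.151 and Vip at 0.150 per 10000. Gal and Vip did not differ beyond the counting error. Sst, Calca and Tac1, known from other autonomic and sensory neurons, were at 0.0473, 0.0418 and 0.0222, and Pdyn, Calcb, Grp, Nts and Crh were listed at 0. Npy held its place at the head of this list in SHR, but Penk did not hold its own: its rank was 3171 in Wistar and 8792 in SHR, and the ratio of Npy to Penk was 31.7 in SHR.

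Genes of the cholinergic phenotype were split. Ache, the acetylcholinesterase, stood at 6.01 ± 0.216 per 10000 (rank 179) and made up 89.8% of the summed level of its list. The choline transporter Slc5a7 stood at 0.432 ± 0.0579 and Ache exceeded it 13.9 ± 1.93 times in Wistar and 25.9 times in SHR. The vesicular acetylcholine transporter Slc18a3 was listed at 0.000393 and choline acetyltransferase Chat at 0. Of the list's 6 genes, the breakdown enzyme was thus high and the genes for making and loading acetylcholine were at or near 0.

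**Figure D4:**
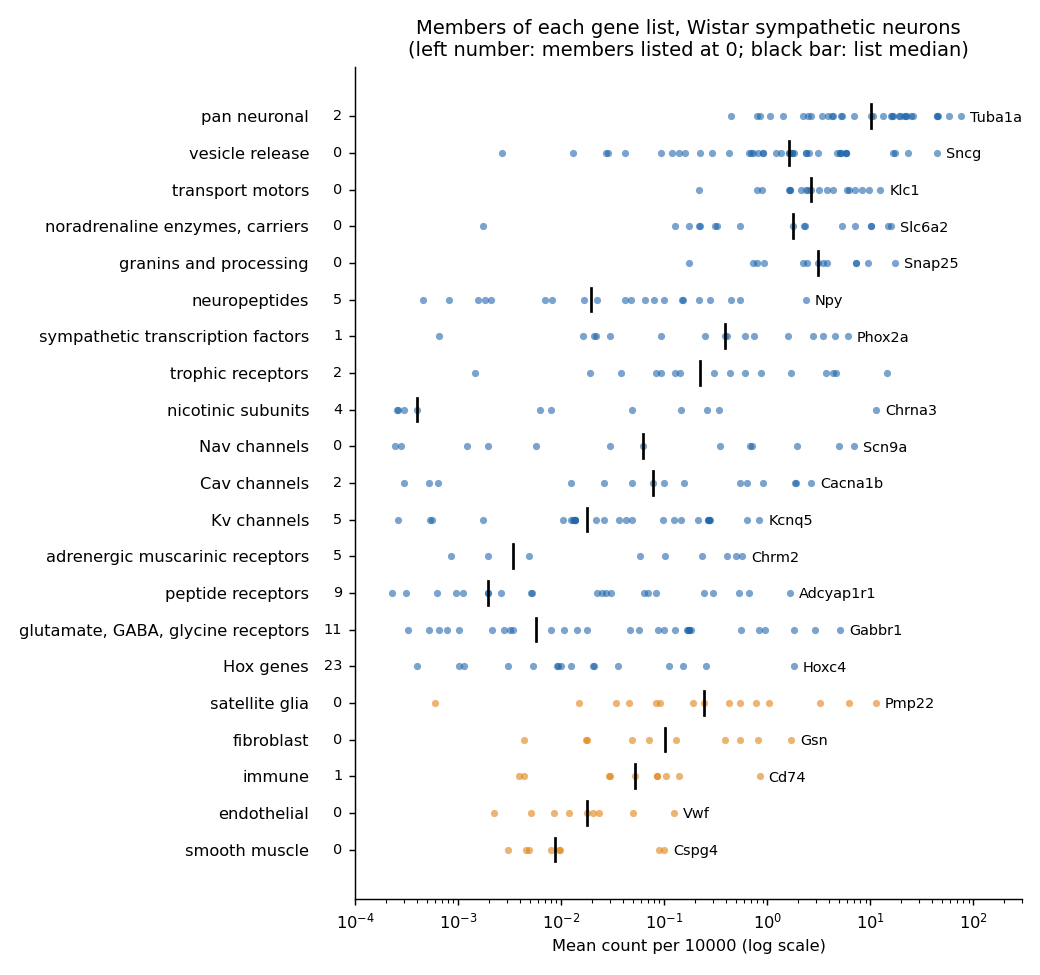
Levels of the members of the main gene lists in the Wistar neurons (mean count per 10000, log scale), with a point per member above 0 (neuronal lists in blue, other cell types in orange), the highest member named in most lists, the number of members at 0 on the left and a bar at the list median, left out where it is 0. The pan-neuronal list stands farthest to the right, while single members such as Chrna3 and Hoxc4 stand far above the rest of their lists, and the endothelial and smooth muscle markers have 1 member each above 0.1 per 10000.

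The nicotinic receptor set was led by 1 subunit. Chrna3 stood at 11.4 ± 0.298 per 10000 (rank 74) and made up 93.4% of the summed level of the 15 subunit genes in the file, of which 11 were above 0. Its known partners in ganglia were far lower, with Chrnb4 at 0.338 ± 0.0512 and Chrna5 at 0.263 ± 0.0452. Chrna3 exceeded Chrnb4 33.8 ± 5.19 times in Wistar and 45.5 times in SHR. Chrna7 stood at 0.145 and Chrnb2 at 0.00617, and Chrna4, common in brain, at 0.000299, no more than a few counts. Chrna6, Chrna9, Chrnb3 and Chrnd were listed at 0.

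Receptors for trophic factors ranged widely in level. Ngfr, which binds all neurotrophins, stood at 3.68 ± 0.169 per 10000 (rank 374). Ntrk3 and Ntrk2, receptors of NT-3 and BDNF, stood at 0.144 and 0.0938. The receptors for the glial-derived family were intermediate, with Gfra2 at 1.68 and Ret at 0.603. Cntfr stood at 0.866 and Lifr at 0.302, and Osmr was listed at 0. The list also holds Bex3 at 4.67 and Maged1 at 4.37 per 10000, which are not receptors. Of the list's 18 genes in the file 16 were above 0, and its order was almost the same in SHR (rho 0.996, n = 18 genes).

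Most receptors for neurotransmitters and peptides stood below 1 per 10000, as did most genes. No adrenergic or muscarinic receptor reached 1 per 10000, and 9 of 14 were above 0. Over all 25399 genes, 1734 reached 1 per 10000 and 16004 were above 0. Chrm2 at 0.571 ± 0.0666 and Adra2a at 0.405 ± 0.056 per 10000 were among the highest. Adra2a, an autoreceptor that limits noradrenaline release, exceeded Adra2c 3.98 ± 1.23 times. Of 31 peptide receptors in the file 22 were above 0, led by the PACAP receptor Adcyap1r1 at 1.66 ± 0.113, the angiotensin receptor Agtr1a at 0.664 ± 0.0717 and the natriuretic peptide receptor Npr2 at 0.529 ± 0.0641. Agtr1a exceeded Agtr1b 9.48 ± 3.32 times in Wistar and 3.66 times in SHR. Agtr2 was listed at 0 in Wistar. Npy1r, a receptor of the cell's own peptide, stood at 0.0838 and Npy2r at 0.00196. Galr2 stood at 0.242 and Galr1 at 0.00112.

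Of 40 glutamate, GABA and glycine receptor genes in the file 29 were above 0 and 3 reached 1 per 10000, beside 16004 and 1734 of all 25399 genes. The 3 were Gabbr1 at 5.06 ± 0.198, which encodes a GABA-B receptor subunit, Gria2 at 2.90 ± 0.150, an AMPA receptor subunit, and Grik5 at 1.84 ± 0.119, a kainate receptor subunit. Gabbr1 exceeded its partner Gabbr2 5.32 ± 0.523 times in Wistar and 8.23 times in SHR. Gria2 exceeded Gria1 16.7 ± 3.63 times in Wistar and 165 times in SHR, where Gria1 stood at 0.00524 per 10000. Grin1 stood at 0.831 per 10000, and of its partners Grin2c stood at 0.170, Grin2a at 0.0028 and Grin2b at 0.00214, while Grin2d was listed at 0.

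The channel families were low beside the transmitter genes, with single members that stood out. Among the 13 sodium channel subunits the beta subunit Scn3b at 4.97 ± 0.196 per 10000 (rank 253) was second only to the alpha subunit Scn9a, and the beta subunit Scn2b stood at 0.0301. Of 17 calcium channel genes in the file 15 were above 0, with Cacna1b at 2.67 ± 0.144, Cacna2d1 at 1.90 ± 0.121 and the beta subunit Cacnb3 at 1.87 ± 0.121 at the head. Cacna1b, the N-type pore subunit that carries calcium for release, exceeded the P/Q-type Cacna1a 2.95 ± 0.315 times and the L-type Cacna1c 34.0 ± 10.9 times. The paper used Cacna1b among its markers of sympathetic neurons, so its level is not independent of the choice of the cluster. No voltage-gated potassium channel gene of the 32 in the file reached 1 per 10000, and 10 reached 0.1. Over all 25399 genes, 1734 reached 1 and 7936 reached 0.1 per 10000. Kcna6, Kcnh1, Kcnd1 and Kcnh2 lay between 0.267 and 0.276 per 10000, closer than their counting errors. Kcnmb4, the accessory subunit of the BK channel, stood at 1.28 ± 0.0995 and exceeded its pore subunit Kcnma1 2.13 ± 0.294 times. Of 25 K2P leak, inward rectifier and pacemaker channel genes 22 were above 0 and 5 reached 0.1 per 10000. Hcn3 at 0.558 ± 0.0658 led them, above Hcn4 at 0.243 and Kcnk2 at 0.235.

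The transcription factors of the sympathetic lineage were retained at levels that differed widely. Of 17 in the file 16 were above 0 and 10 reached 0.1 per 10000. Phox2a at 6.03 ± 0.216 (rank 177), Gata2 at 4.56 ± 0.188, Tfap2b at 3.51 ± 0.165 and Isl1 at 2.80 ± 0.147 led, each apart from the next. Phox2a exceeded Hand2 24.1 ± 4.33 times. Gata3 stood at 0.743, Hand1 at 0.411 and Hand2 at 0.25. Sox11, known from developing neurons, stood at 0.03. Of 39 Hox genes, which mark position along the body axis, 23 were listed at 0 and 4 reached 0.1 per 10000. Hoxc4 stood at 1.82 ± 0.119 per 10000 and made up 73.8% of their sum, followed by Hoxd3 at 0.256, Hoxd4 at 0.152 and Hoxc8 at 0.110. The genes above 0.1 were thus members of the C and D clusters, and all 11 Hoxa genes of the file were listed at 0.

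Immediate early genes, which rise within minutes of a stimulus and also during enzymatic dissociation, had a list median of 1.04 per 10000. The median was 0.00599 over all genes and 0.0973 over the genes above 0. All 14 immediate early genes in the file were above 0 and 9 reached 0.1 per 10000. Jun stood at 3.33, Fos at 3.18, Junb at 2.71, Fosb at 2.00, Atf3 at 1.68, Egr1 at 1.48 and Jund at 1.45 per 10000. Arc and Egr2 stood at 0.0847 and 0.0354, and Fosl1, Egr3 and Fosl2, at 0.00174, 0.000292 and 0.000174, lay below the median of all genes. Tissue that was not dissociated was not analysed here, and how much of these levels arose during preparation was not tested.

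Markers of other cell types were present at levels from near 0 to above those of Npy. The 15 satellite glia genes were all above 0, with a summed level of 24.3 per 10000, or 0.243% of the total, and of 15.0 in SHR. Most of the sum came from genes that other cells use too, Pmp22 at 11.3, Apoe at 6.24 and Dbi at 3.28. The defining glial markers were lower, with Mbp at 1.05, S100b at 0.424, Sox10 at 0.0914 and Fabp7 at 0.0337 per 10000. The 10 fibroblast genes summed to 3.74 per 10000 and to 1.85 in SHR, with Gsn at 1.70, Col3a1 at 0.814 and Col1a1 at 0.542. The immune genes, of which 10 of 11 were above 0, summed to 1.38 and to 0.444 in SHR, with Cd74 at 0.843, C1qa at 0.138 and Ptprc at 0.00388, while Cd3e was listed at 0. The 9 endothelial genes in the file summed to 0.263 per 10000 (0.118 in SHR), the 8 smooth muscle genes to 0.228 (0.144 in SHR) and the 4 erythrocyte genes to 0.0669 (0.0499 in SHR), where Alas2 and Slc4a1 were listed at 0. The chromaffin and small fluorescent cell list held Chga, Penk, Cartpt, Slc18a1 and Pnmt, and Chga made up 70.9% of its sum of 3.44 (1.56 in SHR). The sums of these lists were higher in the Wistar library than in SHR, with 1 library each and no test. The low range of depth held 28 of the 199 neurons found in Wistar and 6 of the 107 found in SHR, shares that cannot be compared because 116 neurons in Wistar and 3 in SHR have no depth.

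The neurons of low depth were looked at through the genes counted in them alone. Among the 28 Wistar neurons of the low range, 129 genes had a level equal to a single count in 1 of them. A single cell of 18637 counts accounted for 16 of these genes, chosen here after their values were seen, and they included Cx3cr1, Itgal, C3ar1, Cd33, Cd84, Runx3, Nod2 and Was, which are known from microglia, macrophages and lymphocytes. Each was listed at 0.0017 per 10000. This cell may not be a neuron, and the 315 cells, called neurons here after their cluster, may include other cells. The low range weighs as much per neuron in the mean as the high range does, and its part in the levels of other cell types' markers was not tested. Free RNA in the droplets and cells joined in 1 droplet were not tested either, since means over a cluster do not hold single cells.

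The rank order of the Wistar neurons was checked against the SHR neurons as a description, with no test. Across the 7622 genes whose levels in the pair of libraries averaged 0.1 per 10000 or more, Spearman's rho was 0.916, across all 25399 genes it was 0.960 and across the 1677 genes with an average of at least 1 it was 0.826. Genes are not independent replicates, and both libraries share the reference and the chemistry. Of the 100 highest Wistar genes 82 were among the 100 highest in SHR, of the 500 highest 420 and of the 1000 highest 847. Large moves among the 100 highest Wistar genes were those of Rsrp1 (rank 85, 485 in SHR), Cd9 (40, 275), Dbh (88, 213) and Map2 (86, 209). Among 32 gene lists the highest member was the same in 24, and at least 2 of the 3 highest were shared in 29. The order within a list gave a rho from 0.5 to 0.996 with a median of 0.958 over the 28 lists with enough genes, and the lowest was that of the endothelial markers.

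**Figure D5:**
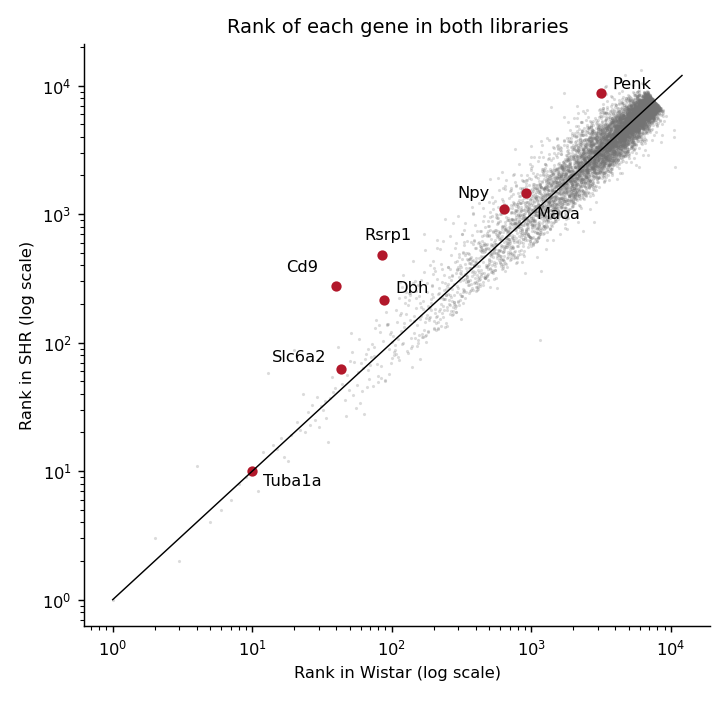
Rank of each gene in SHR against its rank in Wistar (both log scales) for the 7622 genes with an average of at least 0.1 per 10000, with a line where both are equal and named genes in red. Tuba1a lies on the line at rank 10, while Dbh, Cd9, Rsrp1 and Penk lie above it, at a later rank in SHR.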

How the data were processed

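Stellate ganglion cells of 1 Wistar and 1 SHR library were sequenced on an Illumina HiSeq. The submitters' processing notes name the Rnor_6.0 build, Cell Ranger 3.0.2 and Seurat 3. Filters on cells and the treatment of doublets are not given in the sources used here. The authors deposited, for each neuron cluster, the natural log of a gene's mean level after adding 1, where the level is scaled to 10000 counts in every cell. The authors' table of their own strain comparison (fold changes, p-values and shares of cells) was not used.

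Levels are the exponential of the deposited value minus 1, and each library's levels sum to 10000. Dates stand in place of 25 gene names and 4 lines repeat a name. They stayed in totals and ranks and were not named. Python 3.11.15, NumPy 2.4.6, pandas 2.3.3, SciPy 1.17.1 and matplotlib 3.10.9 were used.

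The numbers of neurons and counts were recovered from levels shared by at least 3 genes, taking the largest number of neurons for which at least 90% of the depths that could be judged were whole. The search was tested on simulated data. In simulated clusters of 90, 200 and 315 neurons over 25399 genes, 78 of 80, 106 of 106 and 89 of 89 depths found belonged to a simulated neuron.

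Members and the 32 gene lists were chosen with earlier results of these data known. Of 585 listed names 566 are in the values, and the other 19 were not analysed here. Genes named were the 5 markers, the 40 highest genes, the 20 highest that are neither mitochondrial nor ribosomal protein genes, and from each list the 6 highest members, all members of lists of up to 20 genes and the members at 0. A few of the genes that this rule takes are not reported here. Further list members, the genes of largest rank change and the genes counted in single neurons were chosen after their values were seen. Promoter sequences are from RefSeq on GRCr8, matched by symbol for 13588 of the 25395 uniquely named genes (53.5%), so motif shares of groups of genes were not compared. Alternatives were another total, other minimums, other genes ranked, other numbers of genes sharing a level, and the SHR library.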

Additional observations from a re-analysis of the deposited data

How the results depend on the processing

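Without mitochondrial and ribosomal protein genes, the levels of Slc6a2, Th, Dbh, Npy and Maoa became 19.7, 12.6, 12.6, 2.95 and 2.20 per 10000 by construction, and their ranks 35, 78, 79, 576 and 843. In that setting 625 genes held 50% of the total and the 100 highest held 24.6%. In the SHR library the levels were 6.36 for Dbh, 1.48 for Npy and 1.11 for Maoa, with 15.2 for Slc6a2 and 10.1 for Th, and the ranks were 62, 103, 213, 1100 and 1454. There 257 genes held 50% of the total, the 100 highest held 38.6%, and 110 neurons were found, and the cause of these moves was not tested. With a minimum of 0.1 or 1 per 10000 in place of any level above 0, 7936 and 1734 genes were counted, since fewer genes pass. The rank correlation was 0.83 with a minimum of 1 and 0.960 over all genes. Ranking the genes above 0 alone changed no rank of the 5 markers.

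The search gave 315 neurons with levels shared by at least 2, 4 or 6 genes, and the median depth of the neurons found was 89295, 105845 and 122247 counts. The setting of 2 genes was chosen after seeing the data. It found 253 depths, with 51 of them under 20000 counts, and in SHR it gave no number of neurons. No paired analysis was possible because only 1 library was made from each strain. Levels under 0.1 per 10000 may rest on few counts and are the least certain. The depth of 116 of the 315 neurons is unknown, and the spread between neurons and between animals is not in the deposited means.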
